A study of Mus musculus with 5 samples.

Results

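The RNA 5' end decides which transcripts a ligation-based library can hold, and here it was probed in mouse testis with 5' polyphosphatase. Of 575 RNA and repeat names listed in the untreated or the 5' polyphosphatase library, 254 had 20 or more reads in both libraries summed and were compared one by one. All names of the series number 1038, in 5 libraries. RNA was taken from whole testes of C57BL/6J mice at postnatal day 7, without any genetic change, and size-selected for inserts of 115 to 255 nt, an approach called melRNA-seq (medium-length RNA sequencing). One 600 ng portion of this RNA was left without enzyme and another was incubated with 20 U of 5' polyphosphatase for 30 min at 37 °C. A further 600 ng portion had 25 U of TAP (named tobacco alkaline phosphatase in the labels) for 1.5 h, and it is given only beside the other values. The sources used here do not give the number of mice behind each RNA portion. Each treatment had 1 library, so no difference below has a replicate check and no p-value is given. The listed names are those of small RNAs and repeats, so the tissue could not be checked against the marker mRNAs of testis cells.

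Adapter ligation at the 5' end needs a single phosphate there. A primary transcript of RNA polymerase III (Pol III), such as 5S rRNA, a Y RNA or the RNA of a short interspersed element (SINE), starts with a triphosphate, which 5' polyphosphatase trims to a monophosphate. RNAs that are cut or trimmed from a longer precursor, such as 5.8S rRNA, mature tRNAs and most small nucleolar RNAs (snoRNAs) of introns, carry a monophosphate already. Spliceosomal U1, U4 and U5 RNAs are made by RNA polymerase II and keep a cap, which 5' polyphosphatase does not open. U6 and 7SK RNAs are Pol III products whose first phosphate is methylated.

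Sequences of a few RNAs are shown, namely 2 Pol III transcripts, on which the enzyme can act, and snoRNAs whose reads were similar or fewer after it. They were taken from the GENCODE M21 annotation of GRCm38, and it was not tested that the sequenced RNAs came from these copies. The first group holds Y1 and Y3, where capitals mark the first base, which bears the triphosphate of a primary transcript, and the run of T at the 3' end. Rny1 lies at chr6:47788069-47788180 on the minus strand and Rny3 at chr6:47781624-47781725 on the plus strand.
Rny1: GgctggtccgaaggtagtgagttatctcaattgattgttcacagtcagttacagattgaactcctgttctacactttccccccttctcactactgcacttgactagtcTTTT
Rny3: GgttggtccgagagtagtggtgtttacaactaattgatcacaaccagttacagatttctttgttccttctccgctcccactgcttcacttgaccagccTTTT
Both Y RNAs end in TTTT, a sequence at which Pol III stops. The same ending was held by 3 of 1507 annotated snoRNA transcripts (0.199%).

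The second group holds box C/D snoRNAs, which guide the methylation of rRNA. Snord50a lies at chr9:88521529-88521600 (minus strand) and Snord12 at chr2:167065276-167065365 (plus strand), and the names they belong to, SNORD50 and SNORD12, were among the 3 of the class with the most reads. Capitals mark box C, searched as TGATGA within the first 20 bases of the RNA strand, and box D, the last CTGA of that strand.
Snord50a: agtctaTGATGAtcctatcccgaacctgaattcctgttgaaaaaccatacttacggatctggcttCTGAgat
Snord12: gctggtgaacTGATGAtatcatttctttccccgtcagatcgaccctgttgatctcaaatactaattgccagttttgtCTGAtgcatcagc
Among 98 annotated Snord transcripts, 71.4% held TGATGA in the first 20 bases and 98.0% held CTGA in the last 20.

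The third group holds snoRNAs with fewer reads after the enzyme. Snora52, at chr7:141448803-141448939 on the plus strand, and Snora73a, at chr4:132352775-132352979 on the minus strand, belong to the H/ACA group, which guides pseudouridylation or, for Snora73a, takes part in rRNA processing, and capitals mark their last ACA. Snord22, at chr19:8725866-8725991 on the plus strand, has box D in capitals and no TGATGA in its first 20 bases.
Snora52: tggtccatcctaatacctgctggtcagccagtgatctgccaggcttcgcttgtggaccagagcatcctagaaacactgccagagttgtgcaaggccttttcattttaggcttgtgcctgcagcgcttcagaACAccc
Snora73a: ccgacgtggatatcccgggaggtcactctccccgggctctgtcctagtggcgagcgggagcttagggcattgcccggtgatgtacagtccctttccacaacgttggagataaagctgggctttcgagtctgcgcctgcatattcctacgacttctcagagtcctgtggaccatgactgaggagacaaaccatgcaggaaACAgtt
Snord22: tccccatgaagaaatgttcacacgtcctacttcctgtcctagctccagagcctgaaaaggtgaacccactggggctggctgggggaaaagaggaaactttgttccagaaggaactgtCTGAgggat
Of 42 annotated Snora transcripts, 95.2% held ACA in the last 10 bases.

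Each name was set against 2 denominators, the reads of 5.8S rRNA and all listed reads of its library. The untreated table listed 1160933 reads under 446 names and that of 5' polyphosphatase held 1081523 reads under 521 names. Reads of 5.8S rRNA made up 27.2% of the listed reads without enzyme and 19.2% with it, so a ratio per 5.8S rRNA read was 1.42 times the same ratio per listed read, a shift of 0.50 on the log2 scale. A name was called higher where the 5' polyphosphatase library had at least 2 times the untreated value on both denominators, and lower where it had at most 0.5 times. As the 2 ratios differ by a constant factor, they were not separate checks. The ratio per listed read alone decided higher, and that per 5.8S rRNA read alone decided lower. Intervals in brackets are exact conditional 95% intervals. They cover counting error only, since reads without molecular identifiers are not independent molecules.

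By this rule 64 of 254 names (25.2%) were higher and 8 (3.15%) were lower, leaving 182 between. The 64 were 37 tRNA names, 19 SINE names, 5S rRNA, Y1 RNA, U6 RNA, the LTR name MTD, 2 snoRNA names and 2 names cut short in the tables (snRNA_nuclear and scRNA_embryo). All 8 lower names were snoRNAs, which made up 139 of the 254 names, and 5.76% of those 139 were lower. The median ratio over the 254 names was 1.67 per 5.8S rRNA read and 1.18 per listed read, and 216 and 153 names respectively had a ratio above 1. For 48 of the 64 the whole interval per listed read lay at or above 2.

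A minimum on summed reads lets a name in on its enzyme-treated reads alone. Of the 64 higher names, 17 had 3 reads or fewer in the untreated library, and 2 of these had none. With the minimum of 20 reads put on the untreated library, 22 of 190 names (11.6%) were higher, among them 10 of 12 SINE names and 7 of 28 tRNA names, and the same 8 were lower. At the edge of the minimum, 8 names had 20 or 21 reads and ratios per listed read from 0.358 (SNORD116) to 21.5 (tRNA-Thr chr13.trna996-ThrAGT), and 10 names just outside had 18 or 19 reads.

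**Figure D1:**
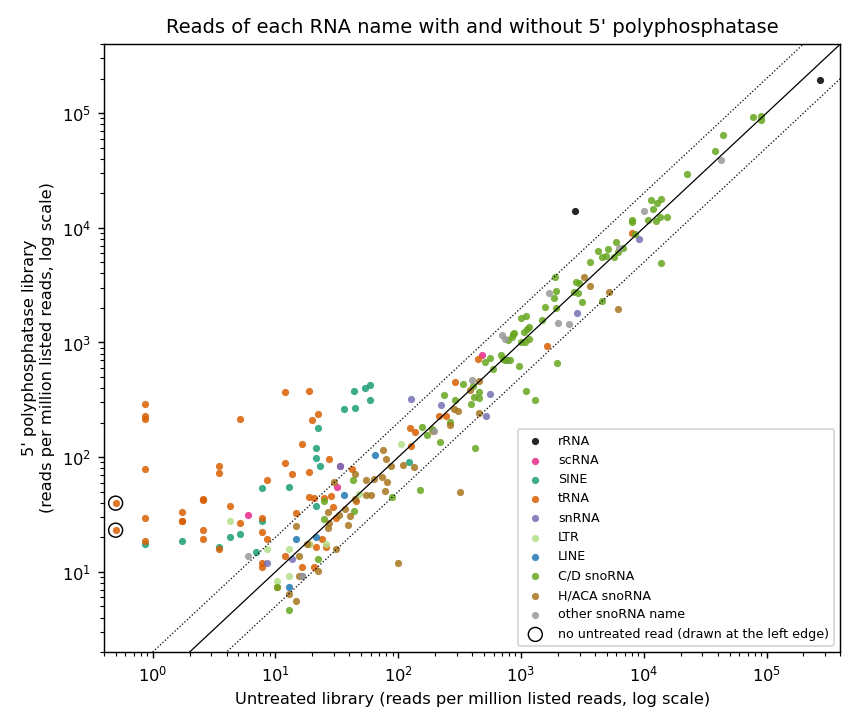
Reads per 1000000 listed reads of 254 names in the untreated library (x axis, log scale) and the 5' polyphosphatase library (y axis, log scale), 1 point per name and 1 library per axis, coloured by RNA class. The solid line marks equal values and the dotted lines 2-fold differences; circled tRNA names had no untreated read and are drawn at the left edge. Above the upper dotted line stand 19 of 21 SINE names, 37 of 63 tRNA names and 5S rRNA (black), and the abundant C/D snoRNAs run along the solid line.

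Among the rRNAs, 5S rRNA, the Pol III transcript of the large ribosomal subunit, had 3193 reads without enzyme and 15080 with it. This was 10100.5 and 72501 reads per 1000000 5.8S rRNA reads, or 2750 and 13943 reads per 1000000 listed reads. The ratio was 7.18 per 5.8S rRNA read (6.91 to 7.46) and 5.07 per listed read (4.88 to 5.27). The 5.8S rRNA itself, cut from the large precursor of rRNA, had 316124 and 207996 reads, 0.706 times the untreated share of listed reads. So 5S and 5.8S rRNA lay on opposite sides of 1 per listed read.

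The Y RNAs, which bind the Ro protein, gave few reads. Y1 had 7 reads without enzyme and 34 with it, a ratio of 7.38 per 5.8S rRNA read (3.22 to 19.7) and 5.21 per listed read (2.28 to 13.9). Y3 had 37 and 59 reads, 2.42 per 5.8S rRNA read (1.58 to 3.76) and 1.71 per listed read (1.12 to 2.66), and was therefore not called higher. The intervals of Y1 and Y3 per listed read overlapped.

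U6 RNA, which forms the catalytic core of the spliceosome, had 39 and 91 reads, 3.55 times the untreated value per 5.8S rRNA read (2.41 to 5.30) and 2.50 per listed read (1.70 to 3.74). 7SK RNA, which holds the elongation factor P-TEFb inactive, had 562 and 845 reads, 2.29 per 5.8S rRNA read (2.05 to 2.55) and 1.61 per listed read (1.45 to 1.80). Both RNAs thus had ratios above the median of all names on either denominator, and below that of 5S rRNA.

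SINE names were the class with the largest share called higher, 19 of 21 names (90.5%) beside 25.2% of all names. Together the 35 listed SINE names had 694 reads without enzyme and 3205 with it. Their share of the listed reads was 0.0598% (95% Wilson interval 0.0555% to 0.0644%) and 0.296% (0.286% to 0.307%), which is 7.02 times per 5.8S rRNA read (6.46 to 7.63) and 4.96 times per listed read (4.57 to 5.39). This sum uses every SINE name, also those under the minimum. It mixes unlike names: per listed read the FAM element had a ratio of 0.736, and the B1 and B2 sums had 6.02 and 7.56. That the ratio of the sum lay near the 5.07 of 5S rRNA therefore says little about single SINE names.

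B2 elements, which derive from tRNA, had 4 subfamilies in the tables and all 4 were higher. B2_Mm2 had 68 and 465 reads, or 215 and 2236 reads per 1000000 5.8S rRNA reads. B2_Mm1o had 51 and 407 reads, the largest B2 ratio at 12.1 per 5.8S rRNA read (9.05 to 16.6) and 8.57 per listed read (6.39 to 11.7). B2_Mm1a had 26 and 195 reads, and B2_Mm1t, with 25 and 131 reads, had the smallest B2 ratio at 7.96 per 5.8S rRNA read (5.16 to 12.8) and 5.62 per listed read (3.65 to 9.01). The intervals of the 4 subfamilies overlapped, so their order was not resolved by these reads. The summed B2 ratio was 10.7 per 5.8S rRNA read (9.11 to 12.7) and 7.56 per listed read (6.44 to 8.94).

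B1 elements derive from 7SL RNA, the RNA of the signal recognition particle. Their 9 listed names had 209 and 1172 reads, a ratio of 8.52 per 5.8S rRNA read (7.35 to 9.92) and 6.02 per listed read (5.19 to 7.01). B1_Mm had 62 and 431 reads (7.46 per listed read, 5.71 to 9.90), B1_Mus1 52 and 288 (5.95 per listed read, 4.41 to 8.15) and B1_Mus2 68 and 340 (5.37 per listed read, 4.13 to 7.07). These 3 names held most B1 reads in both libraries. B1_Mur4 had 9 and 58 reads, B1_Mur1 4 and 18, and B1_Mur2 2 and 20, so the ratios of the last names rest on very few untreated reads.

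The families B3 and B4, related to B2, had lower read numbers. B3 had 42 and 283 reads (7.23 per listed read, 5.22 to 10.3) and B3A had 15 and 59 (4.22, 2.36 to 8.01). B4A had 25 and 107 reads (4.59 per listed read, 2.95 to 7.41) and B4 had 6 and 23 (4.11, 1.63 to 12.4). RSINE1, with 27 and 90 reads, and ID_B1, with 9 and 30, had the same ratio of 3.58 per listed read. All 6 were called higher, though B3A, B4 and ID_B1 had under 20 untreated reads and the intervals of B4 and ID_B1 reached below 2.

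The oldest relatives of B1 had uneven ratios. FAM, an old monomeric relative of B1, had 143 and 98 reads, 1.04 per 5.8S rRNA read (0.797 to 1.36) and 0.736 per listed read (0.563 to 0.958), the only SINE name over the minimum with a ratio below 1 per listed read. PB1, a proto-B1 element, had 25 and 41 reads and 1.76 per listed read (1.04 to 3.02). PB1D9 had 8 and 16 reads, PB1D10 5 and 22, and PB1D7 1 and 19, and these 3 were called higher. The interval of FAM lay wholly below that of every B2 name. Where a SINE name takes reads of a longer RNA that holds the element, the counts cannot tell such reads from those of a Pol III transcript.

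**Figure D2:**
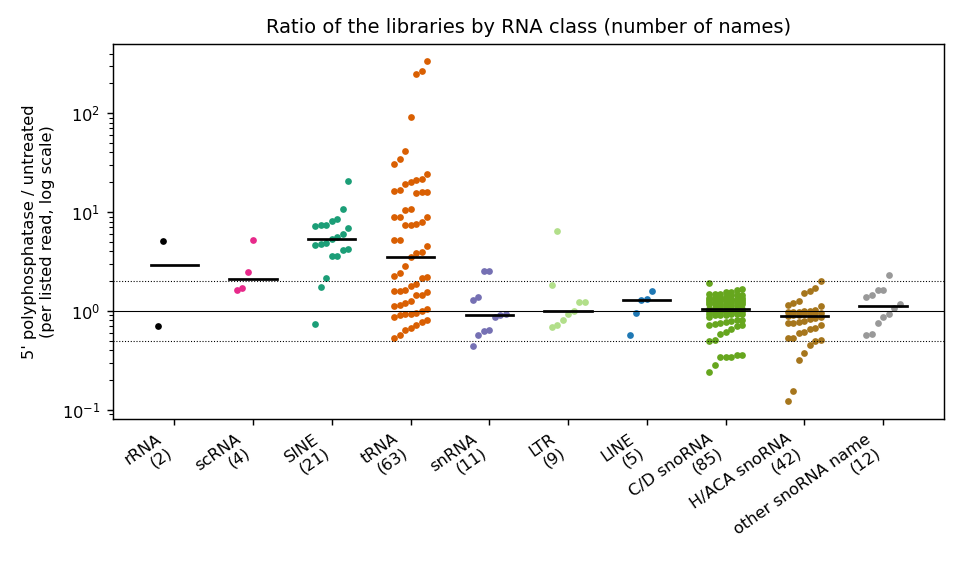
Ratio of the 5' polyphosphatase to the untreated library per listed read (log scale) for 254 names by RNA class, with the number of names in parentheses, 1 point per name and a bar at the class median. Dotted lines mark 2-fold differences; SINE names centre on 5.37, tRNA names range from 0.537 to 336, and C/D snoRNA names centre on 1.05. A name with no untreated read is drawn at its bound against 3 reads.

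The tRNA names spread most widely. Of 63 tRNA names over the minimum 37 (58.7%) were higher, beside 25.2% of all names, and none was lower, beside 3.15%. Ratios per listed read ran from 0.537 (GlnTTG chr13.trna114) to 336 (ArgTCT chr11.trna1818). Of the 63 names, 15 had 3 untreated reads or fewer. With 20 untreated reads required, 7 of 28 tRNA names (25.0%) were higher, beside 11.6% of all names. All 170 listed tRNA names together had 14147 and 17984 reads, 1.93 times per 5.8S rRNA read (1.89 to 1.98) and 1.36 times per listed read (1.33 to 1.40). One name held most of these reads: GluCTC chr3.trna745 had 9307 of them without enzyme and 9721 with it, which was 65.8% and 54.1% of tRNA reads and a ratio of 1.12 per listed read (1.09 to 1.15). Without that name the tRNA sum had 4840 and 8263 reads, 1.83 per listed read (1.77 to 1.90). Near-identical gene copies share reads, so a single tRNA name says little about a single gene, and sums over an anticodon are given beside it.

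The largest ratios of all 254 names were those of tRNA names with hardly any untreated read. ArgTCT chr11.trna1818 had 1 read without enzyme and 313 with it (59.9 to 13312 per listed read). TyrGTA chr14.trna191 had 1 and 246 reads (47.0 to 10472) and TyrGTA chr5.trna109 had 1 and 233 (44.5 to 9921). GlyACC chr11.trna205 had 1 and 85 reads, a ratio of 91.2 (15.9 to 3646). With 1 untreated read the size of such a ratio is barely fixed. These 4 names reached the minimum only through their reads with the enzyme and were picked for their large ratios. Their intervals take neither into account. AlaCGC chrX.trna373 (43 reads) and TyrGTA chr3.trna28 (25 reads) had no untreated read. Against a floor of 3 reads in the untreated library they were at least 15.4-fold and at least 8.95-fold higher per listed read, and their exact 95% intervals began lower, at 11.98 and 6.75.

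More untreated reads were held by LeuTAA chr13.trna991, with 14 and 403 reads (30.9 per listed read, 18.2 to 57.0), ArgACG chr14.trna209, with 22 and 409 (20.0, 13.002 to 32.2), and ArgTCT chr3.trna628, with 6 and 232 (41.5, 18.8 to 114). Of these, the LeuTAA and ArgTCT names had under 20 untreated reads and so reached the minimum only through their reads with the enzyme. MetCAT chr3.trna792 had 23 and 228 reads (10.6, 6.92 to 17.1) and ValAAC chr4.trna1183 had 26 and 255 (10.5, 7.02 to 16.4). The rest of the 20 largest ratios were LysTTT chr7.trna1276 (1 and 32 reads) and chr19.trna639 (4 and 78), AsnGTT chr5.trna1043 (4 and 91), ThrAGT chr13.trna996 (1 and 20), TyrGTA chr13.trna106 (2 and 36), AlaCGC chr2.trna263 (3 and 47), ThrTGT chr14.trna704 (3 and 46), GlnCTG chr3.trna756 (2 and 30), CysGCA chr6.trna157 (2 and 30), and the SINE names PB1D7 and B1_Mur2. Apart from PB1D7 and B1_Mur2, the 20 names with the largest ratios were all tRNAs. ValAAC chr4.trna1183 and TyrGTA chr3.trna28 were not among these 20.

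Summed over anticodons, TyrGTA had 5 reads without enzyme and 616 with it over 10 names, 132 times per listed read (56.4 to 409). ArgTCT had 26 and 648 reads over 5 names, 26.8 times (18.1 to 41.3). Some mouse genes of these anticodons, of LeuCAA and of IleTAT are known to contain introns, a list chosen with the ratios in view. LeuCAA had 6 and 15 reads, 2.68 times (0.984 to 8.44), with no name over the minimum. IleTAT had 3 and 22, 7.87 times (2.36 to 41.1). The LeuCAA interval lay below those of TyrGTA and ArgTCT. The IleTAT interval lay below that of TyrGTA but overlapped that of ArgTCT, so a difference between IleTAT and ArgTCT was not resolved.

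Large anticodon ratios were also found outside that list. AsnGTT had 5 and 124 reads (26.6 per listed read, 11.1 to 83.4), LysTTT 5 and 111 (23.8, 9.91 to 74.8), LeuTAA 23 and 430 (20.1, 13.2 to 32.0) and ArgACG 28 and 439 (16.8, 11.5 to 25.6). Alanine names, with 91 and 543 reads, had 6.41 times (5.12 to 8.09). By contrast LysCTT had 306 and 378 reads, 1.33 times (1.14 to 1.55), and so lay apart from LysTTT of the same amino acid.

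The tRNA names that were not higher included the abundant ones. GluTTC chr9.trna961 had 1882 and 1007 reads, 0.813 per 5.8S rRNA read (0.753 to 0.878) and 0.574 per listed read (0.532 to 0.620). GlyGCC chr8.trna887 had 522 and 771 reads (1.59 per listed read, 1.42 to 1.77), and AspGTC chr5.trna1316 had 251 and 247 (1.06). The selenocysteine tRNA SeC(e)TCA chr7.trna86, whose primary transcript is known to keep its 5' triphosphate, had 225 and 182 reads, 1.23 per 5.8S rRNA read (1.01 to 1.50) and 0.868 per listed read (0.710 to 1.06). Its ratio thus lay below those of 5S rRNA and the SINE sum, with no overlap of the intervals.

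All 402 tRNA genes with a length in RefSeq (GRCm38.p6) were 70 to 107 nt long, shorter than the 115 nt at which the insert window began. Tyrosine GTA genes were 86 to 93 nt long and glutamate CTC genes 72 nt. The tables give no read lengths, so mature tRNAs and longer precursors could not be told apart. No mature or precursor tRNA sequence is shown, as none was in the reference used here.

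**Figure D3:**
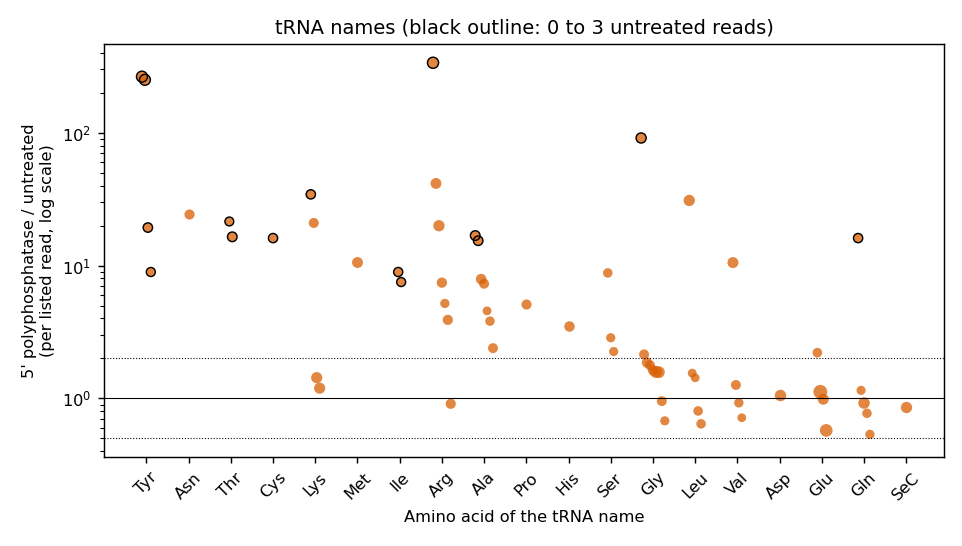
Ratio of the 5' polyphosphatase to the untreated library per listed read (log scale) for 63 tRNA names, grouped by the amino acid in the name and ordered by the median of each group; a larger point has more summed reads, and a black outline marks 0 to 3 untreated reads. Names with no untreated read are drawn at their bound against 3 reads. The 3 highest points, all outlined, are 1 arginine and 2 tyrosine names, while the glutamate, glutamine and selenocysteine (SeC) names lie near or below 1 apart from 1 glutamate and 1 glutamine name.

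Capped snRNAs were not higher. U5 RNA, which aligns the exons during splicing, had 3322 and 1959 reads, 0.896 per 5.8S rRNA read (0.847 to 0.948) and 0.633 per listed read (0.598 to 0.670). U4 RNA, the partner of U6, had 647 and 382 reads, 0.897 per 5.8S rRNA read (0.789 to 1.02) and 0.634 per listed read (0.557 to 0.720). U7 RNA, which acts on histone pre-mRNA ends, had 19 and 10 reads. U1a1, which pairs with the 5' splice site, had 257 and 310 reads, 1.83 per 5.8S rRNA read (1.55 to 2.17) and 1.29 per listed read (1.09 to 1.53), and U1b6 had 10 and 13. Together these 5 names had 4255 and 2674 reads, 0.955 per 5.8S rRNA read (0.910 to 1.003) and 0.675 per listed read (0.642 to 0.708). U1a1 was the one of them whose interval lay above 1 on both denominators. No name for U2, 7SL or 4.5S RNA was listed with 20 or more reads.

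Some names were cut short in the tables and name no single RNA. Of these snRNA_small had 10580 and 8586 reads (0.871 per listed read, 0.847 to 0.896), snRNA_RNA 598 and 245 (0.440, 0.377 to 0.511) and snRNA_snRNA 891 and 761 (0.917). Higher values were found for snRNA_nuclear, with 148 and 348 reads (2.52, 2.08 to 3.08), and scRNA_embryo, with 39 and 90 (2.48, 1.68 to 3.71).

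Box C/D snoRNAs made up the bulk of both libraries, 704814 reads (60.7% of listed reads) without enzyme and 732620 (67.7%) with it. Their ratio was 1.58 per 5.8S rRNA read (1.57 to 1.59) and 1.12 per listed read (1.11 to 1.12). None of 85 names over the minimum was higher, beside 25.2% of all names. Of the 85, 5 (5.88%) were lower, beside 3.15% of all names, and 77 lay within 2-fold per listed read. SNORD55 had 104688 and 101630 reads (1.04 per listed read, 1.03 to 1.05), SNORD12 105150 and 94079 (0.960, 0.952 to 0.969) and SNORD50 89831 and 100124 (1.20, 1.19 to 1.21). Over the 10 C/D names with the most reads the ratio per listed read ran from 0.808 to 1.54. The highest of the class was SNORD42, with 2216 and 3988 reads, 2.74 per 5.8S rRNA read (2.60 to 2.88) and 1.93 per listed read (1.83 to 2.04), just under the threshold. In all, 11 C/D names reached 2-fold per 5.8S rRNA read, so the statement that none was higher holds per listed read and not per 5.8S rRNA read.

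The 5 lower C/D names were SNORD22, with 1520 and 342 reads (0.342 per 5.8S rRNA read, 0.303 to 0.385), SNORD51, with 488 and 129 (0.402, 0.328 to 0.489), SNORD35, with 2284 and 720 (0.479, 0.440 to 0.521), SNORD105, with 1283 and 409 (0.485, 0.432 to 0.542), and SNORD85, with 174 and 56 (0.489, 0.355 to 0.665). Just outside were SNORD32, with 15977 and 5311 reads (0.505 per 5.8S rRNA read, 0.490 to 0.521), and SNORD116, with 15 and 5. The last 3 of the lower names and SNORD32 had intervals that reached past 0.5, and the whole interval was at or below 0.5 for SNORD22 and SNORD51.

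H/ACA snoRNAs differed from the C/D snoRNAs in their sum, with 25948 and 15984 reads, 0.936 per 5.8S rRNA read (0.918 to 0.955) and 0.661 per listed read (0.648 to 0.674). SNORA73 and SNORA68, both with ratios below the class median, held a large part of these reads. The median over names was 1.25 per 5.8S rRNA read and 0.882 per listed read, beside 1.48 and 1.05 for C/D names. Of 42 names over the minimum 3 (7.14%) were lower and 1 (2.38%) was higher, beside 3.15% and 25.2% of all names. A ratio above 1 per listed read was found for 11 of the 42. SNORA4 had 115 and 13 reads, the smallest ratio of all 254 names at 0.172 per 5.8S rRNA read (0.0888 to 0.306) and 0.121 per listed read (0.0627 to 0.216). SNORA52 had 371 and 54 reads (0.221 per 5.8S rRNA read, 0.163 to 0.295) and SNORA73, also called U17, 7138 and 2109 (0.449, 0.428 to 0.471). The most abundant H/ACA names other than SNORA73 were SNORA68, with 6013 and 2989 reads (0.534 per listed read, 0.511 to 0.558), and SNORA72, with 3810 and 3996 (1.13, 1.08 to 1.18). SNORA18, with 35 and 66 reads, was called higher by a narrow margin at 2.02 per listed read (1.32 to 3.14), and snoU2-30, listed without a C/D or H/ACA name, had 7 and 15 reads (2.30, 0.883 to 6.67).

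Where a listed snoRNA name matched a GENCODE symbol, its annotated length could be set beside the insert window. This was so for 54 of 85 C/D names (63.5%), of which 51 had copies that were all shorter than 115 nt, and for 25 of 42 H/ACA names (59.5%), all with a copy of at least 121 nt. With fewer than 80% matched, a comparison of length with the ratio over either class would be void and was not made.

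Retrotransposons of the LINE and LTR classes were rare in both libraries. The 48 LINE names had 244 and 300 reads, 1.32 per listed read (1.11 to 1.57). None of the 5 names over the minimum was higher, beside 25.2% of all names. Among them were L1_Mm at 75 and 112 reads (1.60, 1.19 to 2.18), L1_Mus3 at 42 and 51, L1Md_A at 25 and 22, and L1Md_T, the lowest, at 15 and 8. The 125 LTR names had 469 and 518 reads, 1.19 per listed read (1.04 to 1.35). Only MTD, of the MaLR group, was higher among 9 LTR names (11.1%, beside 25.2% of all names), with 5 and 30 reads (6.44, 2.47 to 21.3). IAPEz-int, an internal part of the IAP element, had 123 and 142 reads (1.24, 0.967 to 1.59), ERVB4_1B-I_MM-int had 56 and 52, and IAPLTR1_Mm 30 and 19 (0.680, 0.362 to 1.25). Thus SINE reads, which are Pol III products or parts of longer RNAs, had a summed ratio whose interval did not overlap those of LINE and LTR reads.

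The 321 names under 20 reads held 504 reads without enzyme and 1038 with it. By class these were 117 and 571 reads for 107 tRNA names, 21 and 64 for 14 SINE names, 70 and 86 for 43 LINE names, and 181 and 203 for 116 LTR names. Of the 107 tRNA names 64 had no untreated read, and 1 had no read with the enzyme.

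TAP also opens caps, and its library shared the untreated library as the control, so its values are set beside those of 5' polyphosphatase without a test of likeness. In the TAP library 5.8S rRNA made up 50.2% of 1067851 listed reads, 1.84 times the untreated share. The denominator decided which enzyme had the larger value for 5S rRNA and the tRNA sum. For the SINE sum and U6 RNA, 5' polyphosphatase had the larger value on both denominators. Per listed read, however, the TAP value of U6 lay within the 5' polyphosphatase interval (1.70 to 3.74), so its order was not resolved there. 5S rRNA had 22417 reads with TAP, 4.14 times the untreated value per 5.8S rRNA read (3.99 to 4.30) beside 7.18 with 5' polyphosphatase, but 7.63 beside 5.07 per listed read. The SINE sum was 2.44 beside 7.02 per 5.8S rRNA read and 4.502 beside 4.957 per listed read. For the tRNA sum the values were 0.827 beside 1.93 per 5.8S rRNA read and 1.52 beside 1.36 per listed read. U6 RNA was 1.27 beside 3.55 per 5.8S rRNA read and 2.34 beside 2.50 per listed read.

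For the capped snRNAs TAP had the larger value on both denominators. U5 RNA was 24.6 per 5.8S rRNA read with TAP beside 0.896 with 5' polyphosphatase, and 45.3 beside 0.633 per listed read. U7 RNA was 12.1 beside 0.800 and 22.3 beside 0.565, and U1a1 was 7.33 beside 1.83 and 13.5 beside 1.29, in the same order. U4 RNA was 1.15 beside 0.897 per 5.8S rRNA read and 2.13 beside 0.634 per listed read. 7SK RNA was 3.44 beside 2.29 and 6.34 beside 1.61. The selenocysteine tRNA was 2.09 beside 1.23 and 3.86 beside 0.868. All C/D snoRNAs together were lower with TAP on both, at 0.120 beside 1.58 per 5.8S rRNA read and 0.221 beside 1.12 per listed read. These low snoRNA values appeared together with the 5.8S share of 50.2% and with more snRNA reads. The snRNA class had 16528 reads untreated and 308359 with TAP, 20.3 times per listed read. The part of either in the low snoRNA values was not tested.

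**Figure D4:**
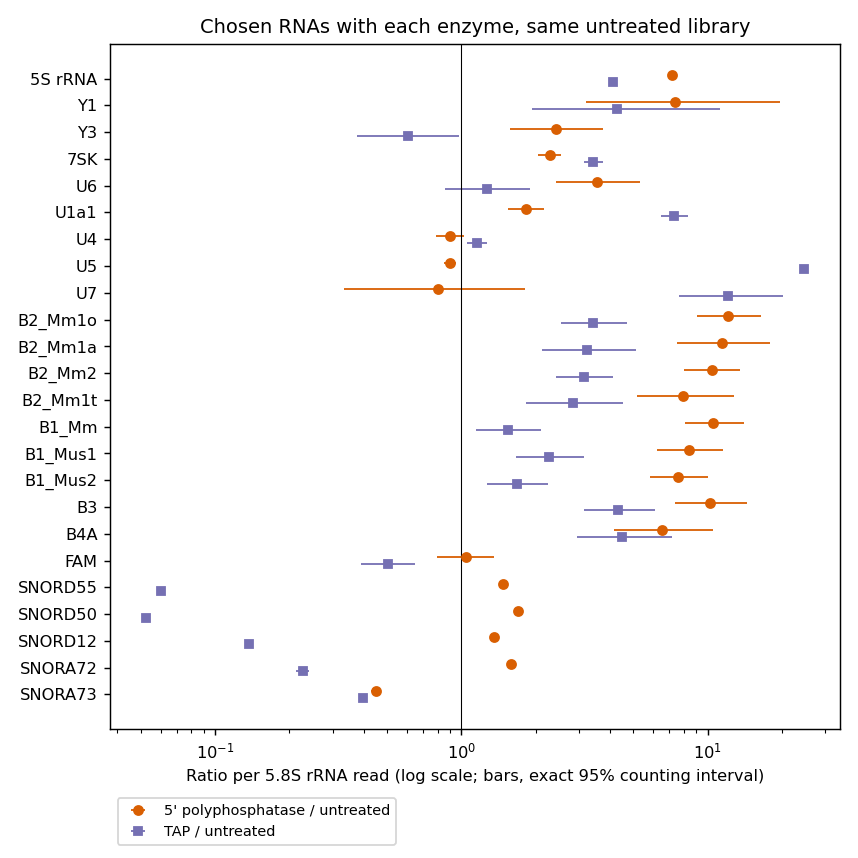
Ratio to the same untreated library per 5.8S rRNA read (x axis, log scale) with 5' polyphosphatase (orange circles) and with TAP (purple squares) for 24 RNA names, 1 library per enzyme; bars are exact 95% counting intervals and are hidden by the points where short. The B1 and B2 names lie between 7.60 and 12.1 with 5' polyphosphatase, U5 and U7 are high with TAP alone, and the snoRNAs lie below 1 with TAP. Per listed read each TAP value would be 1.84 times and each 5' polyphosphatase value 0.706 times the one drawn.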

How the data were processed

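The values are counts, which the authors deposited as reads per repeat or RNA name for each testis library, without normalization. Libraries were made with a TruSeq small RNA kit and read on a MiSeq in 300-bp single-end mode. Per the labels and the methods, the 3' adaptor was removed with Cutadapt, reads without it were dropped and the rest were named by RepeatMasker; versions are not given in the sources used here. A written total (2962749 untreated and 2440039 5' polyphosphatase reads, of which the names held 39.2% and 44.3%) and 1 line without a count in each of these tables were left out. Names were cut at a slash, a leading rRNA_ was removed and B2_MM was read as B2_Mm. Ratios, exact conditional (Clopper-Pearson) 95% intervals and Wilson intervals were computed with Python 3.11.15 and scipy 1.17.1, and tested on simulated data. A library at 0 was entered at a floor of 3 reads, which is 2.58 and 2.77 reads per 1000000 listed reads in the untreated and 5' polyphosphatase libraries. No replicates exist and no test was run. Members, lists and groupings were chosen with earlier results of these data known. Names in the text were the Pol III and capped RNAs and all SINE names over the minimum, the 20 largest and 10 smallest ratios per listed read, the 3 most abundant and the extreme names of each class, and those at the minimum; the anticodon sums and the ValAAC, AspGTC and selenocysteine tRNAs were chosen after their values were seen. Alternatives were other denominators, read minima, folds and sums by anticodon.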

Additional observations from a re-analysis of the deposited data

How the results depend on the processing

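No paired analysis was possible because each treatment of testis RNA has 1 library. The 64 higher names became 38 with a minimum of 50 reads and 179 with none, and 22 with 20 reads required in the untreated library, an alternative chosen after seeing the data; under the other alternatives the count ran from 47 to 95. The 8 lower names became 14 per listed read alone, 20 per box C/D snoRNA read, 13 at a fold of 1.5, 2 at a fold of 3 and 5 where the whole interval had to pass. The share of C/D snoRNA names called higher was 0% and became 12.9% per 5.8S rRNA read alone, and that of H/ACA names, 2.38%, became 9.52% there and 0% at a fold of 3. The share of tRNA names, 58.7%, became 25.0% with 20 reads required in the untreated library and was 50.8% to 71.4% under the other 3 alternatives run. That of SINE names was 83.3% to 95.2% over all 4. For the 53 named RNAs called higher or lower, no denominator reversed the direction. The call rule fixed this in advance, since the denominators differ by factors of at most 1.58, below the fold of 2. With 1 library per treatment, differences between library preparations cannot be told apart from those made by the enzyme, and names with 1 to 3 untreated reads have wide intervals, those with none no upper limit.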
